A study of Mus musculus with 16 samples.

Results

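The genes described here are 8 enzymes that make polyunsaturated, monounsaturated and very long-chain fatty acids in mouse liver. They are the desaturases *Fads1*, *Fads2* and *Scd2*, the elongases *Elovl2*, *Elovl5* and *Elovl1*, and *Hacd3* and *Tecr*, which serve later steps of chain elongation. They were chosen by their symbols, and each matched 1 of the 52143 genes in the table. Liver RNA was sequenced from 16 male C57BL6/J mice in 4 groups of 4, which were 6 weeks old when the diets began. Groups were named Chow (chow and 0.9% saline), Chow/FGFR4 KD (chow and siRNA), HFD (high-fat diet, 60% fat, and saline) and HFD/FGFR4 KD (high-fat diet and siRNA). Diets lasted 12 weeks. Injections were repeated at intervals of 2 weeks, the siRNA at 3 mg/kg, and its target was *Fgfr4*, the receptor through which the gut hormone FGF15 represses bile acid synthesis. The siRNA carried N-acetylgalactosamine (GalNAc), a sugar taken up by hepatocytes, and no group received a control siRNA, so knockdown of FGFR4 and siRNA as such cannot be told apart. The question here was how far the diet, the knockdown (KD) and both together went with the level of these mRNAs.

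Linoleic and alpha-linolenic acid cannot be made by mammals and come from the diet. In liver they are desaturated by FADS2, lengthened mainly by ELOVL5, desaturated again by FADS1 and lengthened further by ELOVL2, which leads towards arachidonic acid and docosahexaenoic acid of membrane phospholipids. Each elongation round is begun by an ELOVL enzyme, and the later steps use hydroxyacyl-CoA dehydratases such as HACD3 and the reductase TECR. *Fads1*, *Fads2* and *Elovl5* are known targets of SREBP-1c and PPARalpha in liver, and the desaturases are repressed by dietary polyunsaturated fat.

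All 8 genes are protein-coding, and their positions are given in GRCm38. *Fads1* (ENSMUSG00000010663) lies on chromosome 19 from 10182888 to 10196877 on the plus strand, and *Fads2* (ENSMUSG00000024665) lies beside it on the minus strand from 10062765 to 10101746, so that the start sites are 81142 bases apart and transcription runs in opposite directions. *Scd2* (ENSMUSG00000025203) is on the same chromosome from 44293674 to 44306864. *Elovl5* (ENSMUSG00000032349, 77917364 to 77984519) and *Hacd3* (ENSMUSG00000033629, 64986983 to 65021693) are on chromosome 9. *Elovl2* (ENSMUSG00000021364) is on chromosome 13 from 41182381 to 41220405, *Elovl1* (ENSMUSG00000006390) on chromosome 4 from 118428093 to 118432953 and *Tecr* (ENSMUSG00000031708) on chromosome 8 from 83571698 to 83607971. RefSeq promoter sequences (GRCm38.p6) were found for 6 of the 8 genes and not for *Fads1* or *Scd2*.

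The upstream sequences of *Elovl5* and *Elovl2*, elongases whose mRNA was higher on HFD, are shown beside that of *Hacd3*, whose level did not pass the test in any comparison. Capitals mark CCAAT boxes (CCAAT), GC boxes (GGGCGG) and E-boxes (CACGTG) on either strand. These kinds of sites are bound by NF-Y, SP1 and bHLH factors, and NF-Y and SP1 often accompany SREBP. None of the printed bases lies in an annotated exon.
Elovl5 (chr9:77917115-77917363, plus strand): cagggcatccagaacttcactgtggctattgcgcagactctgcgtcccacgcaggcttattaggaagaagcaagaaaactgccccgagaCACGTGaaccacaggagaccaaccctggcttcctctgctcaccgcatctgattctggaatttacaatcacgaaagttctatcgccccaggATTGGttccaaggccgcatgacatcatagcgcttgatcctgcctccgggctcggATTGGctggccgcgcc
Elovl2 (chr13:41220406-41220653, minus strand): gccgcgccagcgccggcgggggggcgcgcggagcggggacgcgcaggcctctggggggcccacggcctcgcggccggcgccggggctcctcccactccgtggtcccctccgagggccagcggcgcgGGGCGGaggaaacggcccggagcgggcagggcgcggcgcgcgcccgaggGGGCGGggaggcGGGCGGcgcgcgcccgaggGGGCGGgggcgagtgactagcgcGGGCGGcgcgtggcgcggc
Hacd3 (chr9:65021718-65021967, minus strand): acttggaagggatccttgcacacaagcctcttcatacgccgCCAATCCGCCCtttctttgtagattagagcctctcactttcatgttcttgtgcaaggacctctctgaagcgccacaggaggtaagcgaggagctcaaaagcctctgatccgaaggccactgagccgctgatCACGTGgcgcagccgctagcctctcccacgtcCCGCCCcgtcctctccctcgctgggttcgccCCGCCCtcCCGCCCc
*Elovl5* held 2 CCAAT boxes, at 71 to 67 and 17 to 13 bases before the start, and an E-box at 161 to 156 bases. *Elovl2* held 5 GC boxes and none of the other motifs in a window with 87.2% G and C, against 55.6% in *Elovl5*. *Hacd3* held a CCAAT box, an E-box and 4 GC boxes, so no motif searched was shared by both elongases and absent from *Hacd3*. The window of *Tecr* held 3 CCAAT boxes and a GC box, the window of *Elovl1* at its annotated start 5 GC boxes and a CCAAT box, and the window of *Fads2*, which overlaps an annotated exon of the gene, a GC box. A sterol regulatory element (TCACNCCAC), the nuclear receptor motifs direct repeat 1 and direct repeat 4 were searched as well and had no match in these windows. Among 32851 promoter windows of 250 bases, 33.8% held a CCAAT box, 32.7% a GC box, 6.02% an E-box, 1.05% the sterol element, 0.0335% the direct repeat 1 and 0.0152% the direct repeat 4. Such matches describe letters and not bound sites.

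Total counts per library ran from 3445949 to 5976449, and levels are given as CPM, counts scaled to the size of the library with TMM factors. *Fgfr4* was measured first and lay between 2.43 and 6.17 CPM in the 8 KD libraries and between 21.8 and 36.3 CPM in the 8 saline libraries. Summed CPM of 6 hepatocyte markers lay between 63850 and 82467 in all groups. HFD/FGFR4 KD 1 stood apart from its group in the genes described here, with the lowest level of its group for 8 of 8 of them. It also stood apart over 7405 genes. There, chi-square over its degrees of freedom was 48.0, 72.6 and 53.2 between this library and the other libraries of its group. Among those other libraries it was 16.6, 7.59 and 9.41. The abundant gene Gm42418 took 22.3% of the counts of HFD/FGFR4 KD 1, against 14.3, 16.2 and 13.7% in the others of its group. It took 22.2% in Chow 2 and 22.7% in Chow 4. Its part in these differences was not tested. Results that rest on HFD/FGFR4 KD 1 are given with and without it. In bulk liver, fewer cells of a type and less RNA per cell cannot be told apart.

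HFD raised the mRNA of both desaturases and both elongases of the polyunsaturated pathway in saline-injected mice. *Fads2* rose 2.59-fold, *Fads1* rose 1.90-fold, *Elovl5* 3.26-fold and *Elovl2* 1.36-fold, while *Elovl1*, *Scd2*, *Hacd3* and *Tecr* did not pass the test. In total, 4 of 8 genes were called (p under 0.05 with an adjusted p under 0.25, as the study set it), all of them higher. Over the 11324 genes tested, 26% were called in this comparison and 13.3% were called higher. At an adjusted p under 0.05 it was 3 of 8, against 9.2% of all genes. The median log2 change was 0.24 over the 8 genes and 0.01 over all genes.

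*Fads2*, which encodes the desaturase that begins the pathway, had 201, 214, 203 and 173 CPM in the Chow mice. In the HFD mice it had 548, 352, 667 and 529 CPM. The groups did not overlap, and the lowest HFD library, HFD 2, was still above the highest Chow library. The log2 change was 1.37 (SE 0.20 and 95% interval 0.95 to 1.79), with a limma-voom adjusted p of 0.0009. *Fads1*, the desaturase of the next step but one, had 313, 337, 379.5 and 357 CPM on chow and 735, 463, 831 and 654 CPM on HFD. Its groups did not overlap either, and the log2 change was 0.92 (SE 0.17, 95% interval 0.55 to 1.29, limma-voom adjusted p 0.00465). No overlap with HFD higher was found for 8.33% of all genes.

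*Elovl5*, the elongase that acts early in the pathway, had 249, 266, 357 and 383 CPM in Chow and 1437, 649, 1406 and 781 CPM in HFD. The groups were apart, but the HFD libraries fell into a higher pair, HFD 1 and 3, and a lower pair, HFD 2 and 4. The same pairs were alike over 7405 genes. Chi-square over its degrees of freedom was 11.4 for HFD 1 and 3 and 11.7 for HFD 2 and 4. It ran from 34.7 to 58.9 between libraries of different pairs. The summed CPM of 6 stellate cell markers was 263 and 264 in HFD 1 and 3, and 150 and 149 in HFD 2 and 4. The sum of 9 Kupffer cell and macrophage markers did not split in this way (129, 204, 130 and 119 in HFD 1, 2, 3 and 4). A link of these sums to *Elovl5* was not tested. The log2 change of *Elovl5* was 1.70 with an SE of 0.37 (95% interval 0.91 to 2.50, limma-voom adjusted p 0.0105). *Elovl2*, which lengthens the longer polyunsaturated acids towards docosahexaenoic acid, had 355, 446, 399.6 and 485.5 CPM in Chow against 629.7, 471, 634.5 and 554 CPM in HFD. Here the groups overlapped, because HFD 2 lay below Chow 4. The log2 change was 0.44 (SE 0.15, 95% interval 0.12 to 0.76), and the limma-voom adjusted p of 0.0792 passed the threshold of the study but not 0.05. Without HFD 3 its log2 change was 0.39 and the adjusted p 0.188, and over all 18 alternatives the adjusted p ran from 0.0163 to 0.21 with every value past the threshold.

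**Figure D1:**
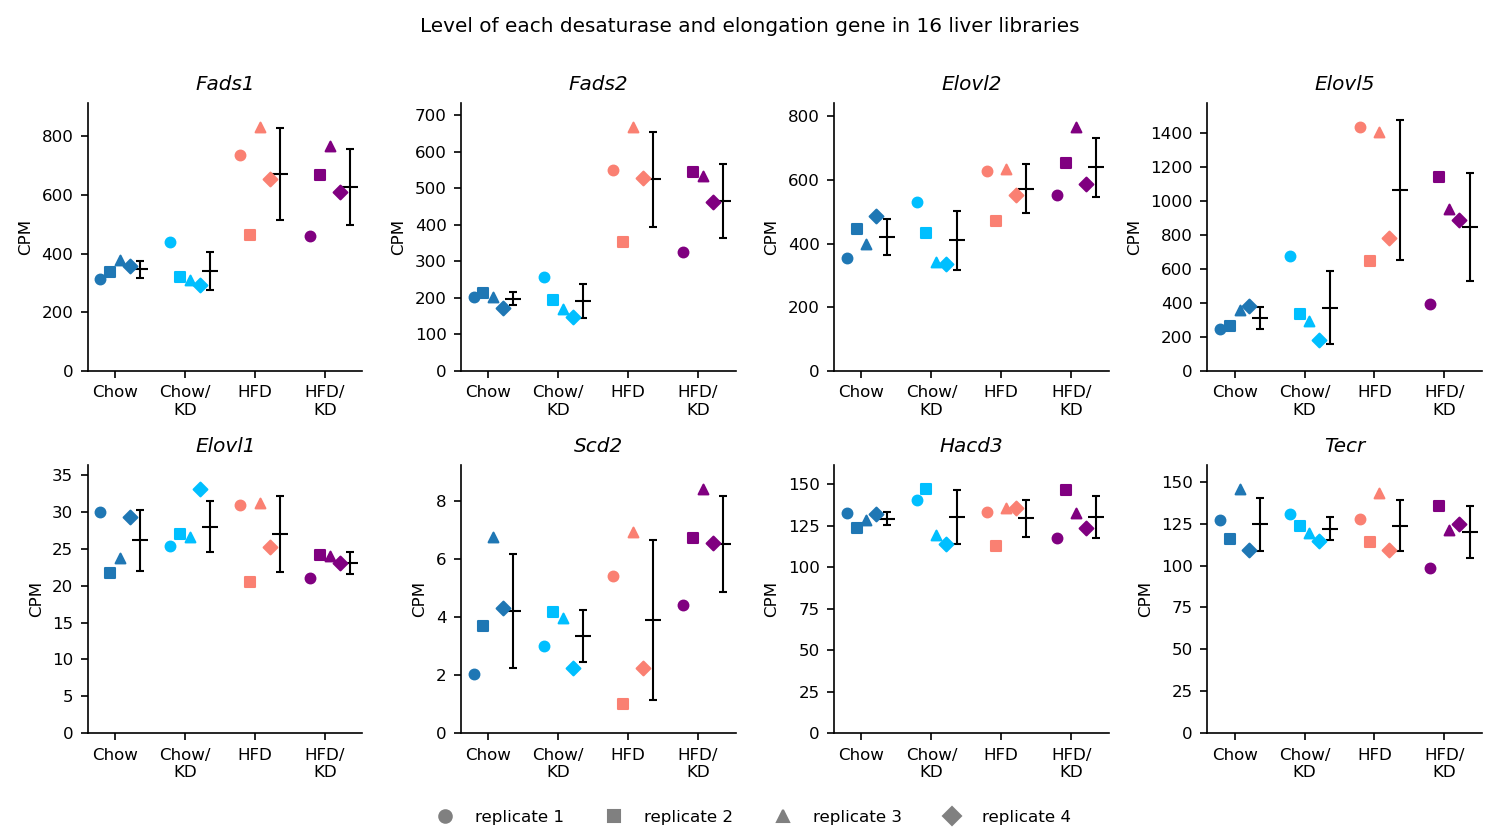
Level in CPM (counts scaled to library size with TMM factors, linear axis from 0) of each of the 8 genes in every liver library, by group, with 1 point per mouse, marker shape for the replicate number, and the mean and SD (n = 4) as a bar to the right. *Fads1* and *Fads2* lie higher in all HFD libraries than in all chow libraries, and *Hacd3* and *Tecr* lie at similar heights in all groups.

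The genes that act in every elongation round showed the narrowest differences. *Hacd3* had a mean of 129 CPM in both diets (SD 3.997 on chow and 11.2 on HFD, n = 4), with a fold of 0.999 and a 95% interval of 0.868 to 1.15. *Tecr* had 125 ± 15.8 CPM (SD, n = 4) in Chow and 124 ± 15.2 CPM in HFD, and its fold was 0.993 (95% interval 0.843 to 1.17). *Elovl1*, which lengthens saturated and monounsaturated very long-chain acids, had 26.2 ± 4.11 CPM in Chow and 26.98 ± 5.17 CPM in HFD, with a fold of 1.03 (95% interval 0.833 to 1.26). These intervals leave out changes as large as those of *Fads2* and *Fads1*.

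*Scd2*, a desaturase that makes monounsaturated acids, was scarcely detected. It had 2.05, 3.70, 6.77 and 4.32 CPM in Chow and 5.41, 0.993, 6.96 and 2.25 CPM in HFD, from 6.07 to 45.4 expected counts per library. The fold of 0.823 had a 95% interval from 0.398 to 1.70, too wide to give a direction. Of the 31-base words in its transcripts, 6.81% also occur in other genes, most of them in *Scd3*, so a part of its counts may be shared. *Scd3* itself had group means between 0.10 and 0.43 CPM, and the share with the abundant *Scd1* is not given here. The share of words found in other genes was 10.2% for *Tecr*, of which 6.67% lay in AC159187.1. It was at most 0.816% for *Fads2*, *Elovl1* and *Hacd3*, and 0% for *Fads1*, *Elovl2* and *Elovl5*.

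The same 4 genes were higher on HFD in mice that received the siRNA, in libraries that share no mouse with the comparison in saline-injected mice, although the fit used 1 estimate of the spread for all 16 libraries. Again 4 of 8 genes were called, against 20.2% of all genes, with 10.1% called higher. At an adjusted p under 0.05 it was 3 of 8, against 3.1% of all genes. The median log2 change was 0.76 over the 8 genes and -0.01 over all genes. Of the genes called higher with saline, 35.9% were also called higher with KD, and that overlap made up 47% of those called higher with KD. *Fads1*, *Fads2*, *Elovl2* and *Elovl5* were in both.

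*Fads2* had 256, 193, 169.8 and 146 CPM in Chow/FGFR4 KD and 325, 544, 534 and 461 CPM in HFD/FGFR4 KD. *Fads1* had 438, 322, 311 and 294 CPM on chow and 458, 668, 767 and 609 CPM on HFD. *Elovl2* had 532, 434, 341.5 and 335 CPM on chow and 554, 652, 766 and 588 CPM on HFD. In all 3 genes the groups did not overlap, which was so, with HFD higher, for 5.93% of all genes. The log2 changes were 1.28 for *Fads2* (SE 0.20, limma-voom adjusted p 0.00303), 0.87 for *Fads1* (SE 0.17, adjusted p 0.0158) and 0.66 for *Elovl2* (SE 0.15, adjusted p 0.0277). In each of these genes Chow/FGFR4 KD 1 was the highest library of its group and HFD/FGFR4 KD 1 the lowest of its own, so that the gap between them was small.

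For *Elovl5* those libraries crossed. It had 678, 338, 291.5 and 181 CPM in Chow/FGFR4 KD and 396, 1146, 955 and 891 CPM in HFD/FGFR4 KD. The other 3 HFD/FGFR4 KD libraries were all above the chow libraries. The log2 change was 1.25 (SE 0.37, 95% interval 0.47 to 2.04, limma-voom adjusted p 0.0756). Without HFD/FGFR4 KD 1 it was 1.58 with an adjusted p of 0.0189, and over all 18 alternatives the adjusted p ran from 0.0189 to 0.196. Without the same library the log2 change was 1.45 for *Fads2*, 1.01 for *Fads1* and 0.72 for *Elovl2*.

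**Figure D2:**
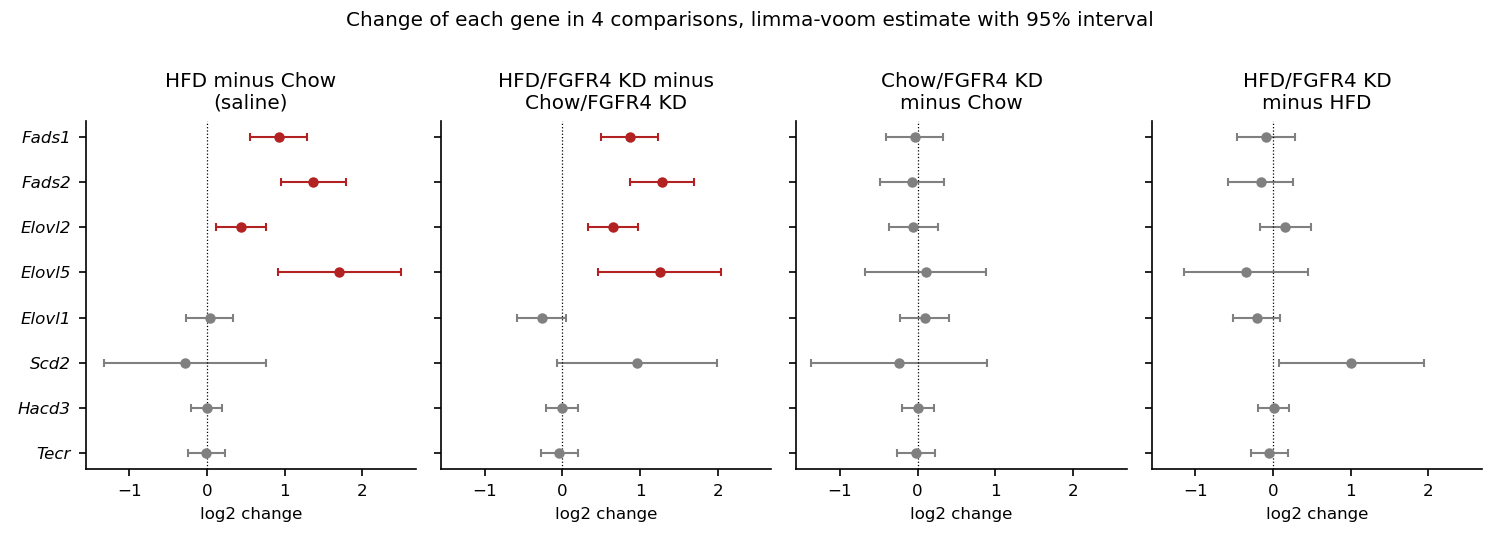
Log2 change of each gene in 4 comparisons (limma-voom estimate, point, with its 95% interval, bar), where 0 is no change and red marks genes called at p under 0.05 with an adjusted p under 0.25. *Fads1*, *Fads2*, *Elovl2* and *Elovl5* are red in both diet comparisons, and no gene is red in either KD comparison.

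*Scd2* and *Elovl1* did not pass the test with KD, although their groups did not overlap. *Scd2* had 3.02, 4.16, 3.99 and 2.23 CPM in Chow/FGFR4 KD and 4.40, 6.74, 8.42 and 6.57 CPM in HFD/FGFR4 KD. The log2 change of 0.96 had an SE of 0.49 and an adjusted p of 0.277 by limma-voom. It passed the threshold with edgeR, with DESeq2, with library quality weights, with only these groups in the fit and without HFD/FGFR4 KD 1, with adjusted p from 0.112 to 0.236 in those settings and from 0.112 to 0.477 over all 18 alternatives. *Elovl1* had 25.4, 26.98, 26.6 and 33.1 CPM on chow against 21.03, 24.1, 24.1 and 23.1 CPM on HFD, a log2 change of -0.27 (SE 0.15, adjusted p 0.342). It was called with only these groups in the fit (adjusted p 0.23), and over all 18 alternatives the adjusted p ran from 0.23 to 0.736. No overlap with HFD lower was found for 5.61% of all genes. *Hacd3* and *Tecr* had folds of 0.999 (95% interval 0.867 to 1.15) and 0.975 (0.826 to 1.15).

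The effect of the diet was compared between saline and KD by the interaction term, which is also the difference between the KD effects on both diets. None of the 8 genes was called by limma-voom, edgeR or DESeq2, and 0 had an unadjusted p under 0.05. Over all genes 0.0353% were called and 6.76% had an unadjusted p under 0.05. The difference, with KD minus without, was -0.09 on the log2 scale for *Fads2* (95% interval -0.68 to 0.50), -0.05 for *Fads1* (-0.58 to 0.47), 0.22 for *Elovl2* (-0.24 to 0.67) and -0.45 for *Elovl5* (-1.57 to 0.67). Without HFD/FGFR4 KD 1 it was 0.08 for *Fads2*, 0.09 for *Fads1*, 0.28 for *Elovl2* and -0.12 for *Elovl5*, and for *Elovl5* it was -0.66 without HFD 2 and -0.29 without HFD 3. It was widest for *Scd2*, at 1.24 (-0.22 to 2.71, unadjusted p 0.0913, adjusted p 0.776). A missed threshold does not show that the diet acted alike with and without KD, and the interval of *Elovl5* reaches far on both sides.

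**Figure D3:**
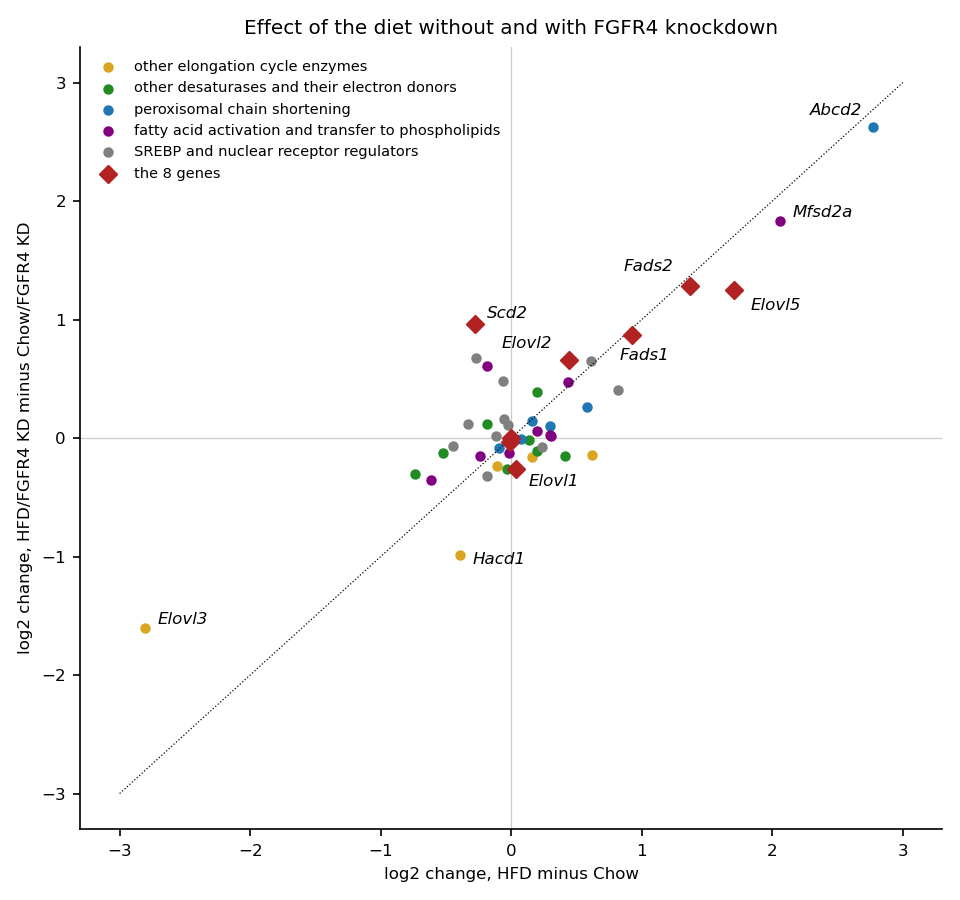
Log2 change on HFD in saline-injected mice (HFD minus Chow, horizontal axis) against that in siRNA-injected mice (HFD/FGFR4 KD minus Chow/FGFR4 KD, vertical axis) for the 8 genes (red diamonds) and the tested genes of 5 related lists (colored points), with equal changes on the dotted line. *Fads1*, *Fads2*, *Elovl5* and, nearer to the origin, *Elovl2* lie on the positive side of both axes, *Hacd3* and *Tecr* at the origin, and *Elovl3* low on both.

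FGFR4 KD itself went with no called change in the 8 genes on either diet. In mice on HFD, 0 of 8 were called by limma-voom, edgeR or DESeq2, against 3.14% of all genes, and 1 of 8, *Scd2*, had an unadjusted p under 0.05, against 11% of all genes. The folds with KD on HFD were 0.894 for *Fads2* (95% interval 0.668 to 1.20), 0.938 for *Fads1* (0.724 to 1.21), 1.12 for *Elovl2* (0.894 to 1.40) and 0.785 for *Elovl5* (0.45 to 1.37). On the log2 scale *Elovl5* was at -0.35, and it was at -0.02 without HFD/FGFR4 KD 1, -0.56 without HFD 2 and -0.19 without HFD 3. Without HFD/FGFR4 KD 1 the log2 change was 0.05 for *Fads1*, 0.0026 for *Fads2* and 0.23 for *Elovl2*, so that the sign of both desaturases turned. These comparisons share the HFD libraries with the comparison of diets in saline-injected mice. *Scd2* was at 6.53 ± 1.65 CPM (SD, n = 4) with KD and 3.90 ± 2.76 CPM without, a fold of 2.01 (95% interval 1.05 to 3.84, unadjusted p 0.0361, limma-voom adjusted p 0.407), and its groups overlapped. Its log2 change of 1.01 was 0.47 without HFD 2, which had 0.993 CPM, 1.41 without HFD 3 and 1.18 without HFD/FGFR4 KD 1.

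In mice on chow, 0 of 8 genes were called by limma-voom, edgeR or DESeq2 and 0 had an unadjusted p under 0.05, against 0.00883% and 4.58% of all genes. The folds ran from 0.849 for *Scd2* (95% interval 0.388 to 1.86) to 1.07 for *Elovl5* (0.626 to 1.84). *Elovl5* spread most among the Chow/FGFR4 KD mice, where Chow/FGFR4 KD 1 at 678 CPM was above every Chow library and Chow/FGFR4 KD 4 at 181 CPM below every one. Its log2 change of 0.10 was -0.24 without the first of these and 0.39 without the second. For *Hacd3* the fold was 1.01 (95% interval 0.872 to 1.16) and for *Tecr* 0.985 (0.834 to 1.16).

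The order of the groups was set by diet in 4 genes. *Fads1* had a mean of 671 ± 156 CPM in HFD (SD, n = 4), 626 ± 129 in HFD/FGFR4 KD, 346 ± 28.2 in Chow and 341 ± 65.7 in Chow/FGFR4 KD. *Fads2* had 524 ± 129.8, 466 ± 101, 198 ± 17.4 and 191 ± 47.0 CPM in that order. In both genes the neighbours on the same diet differed by less than their SD. *Elovl5* had 1068 ± 412 CPM in HFD, 847 ± 319 in HFD/FGFR4 KD, 372 ± 214 in Chow/FGFR4 KD and 313 ± 66.0 in Chow, again with same-diet neighbours within their SD. *Elovl2* was highest in HFD/FGFR4 KD, at 639.9 ± 93.6 CPM, then in HFD at 572 ± 77.0, Chow at 422 ± 56.6 and Chow/FGFR4 KD at 411 ± 92.5, with the same neighbours within their SD.

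Compared between genes per length (CPM per kilobase of the longest coding transcript), the levels in Chow lay close together for *Elovl5* (113), *Elovl2* (109.8), *Fads1* (100.1) and *Tecr* (98.0), followed by *Fads2* (62.8), *Hacd3* (47.7), *Elovl1* (14.4) and *Scd2* (0.772). In HFD *Elovl5* led with 384, ahead of *Fads1* (194), *Fads2* (166) and *Elovl2* (149). Ratios between genes were compared within each library. CPM of *Fads2* over that of *Fads1* ran from 0.486 to 0.643 in Chow and from 0.499 to 0.601 in Chow/FGFR4 KD, and from 0.746 to 0.809 in HFD and from 0.696 to 0.815 in HFD/FGFR4 KD. Every library on HFD had a higher ratio than every library on chow. CPM of *Elovl5* over that of *Elovl2* ran from 0.595 to 0.892 in Chow and from 1.38 to 2.28 in HFD, but with KD from 0.539 to 1.27 on chow and from 0.716 to 1.76 on HFD, where the groups overlapped.

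Outside the Chow group, most of the 8 genes, and not only the 4 that rose on HFD, were lowest in the same library. In HFD, HFD 3 was the highest library for 7 of 8 genes and HFD 2 the lowest for 7 of 8, and in HFD/FGFR4 KD the library numbered 1 was the lowest for 8 of 8. In Chow/FGFR4 KD the library numbered 4 was the lowest for 7 of 8. In Chow no library was the lowest for more than 4 of 8. Chow 4 was the lowest there for *Fads2* but the highest for *Elovl2* and *Elovl5*. Over all genes, HFD 3 was the highest library of its group in 25%, and the share in which a library was the lowest of its group was 27.1% for HFD 2, 30.6% for HFD/FGFR4 KD 1 and 29.7% for Chow/FGFR4 KD 4. Relative to the mean of Chow, *Elovl5* in HFD went from 2.07-fold in HFD 2 to 4.58-fold in HFD 1, and *Elovl2* from 1.12-fold to 1.51-fold.

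**Figure D4:**
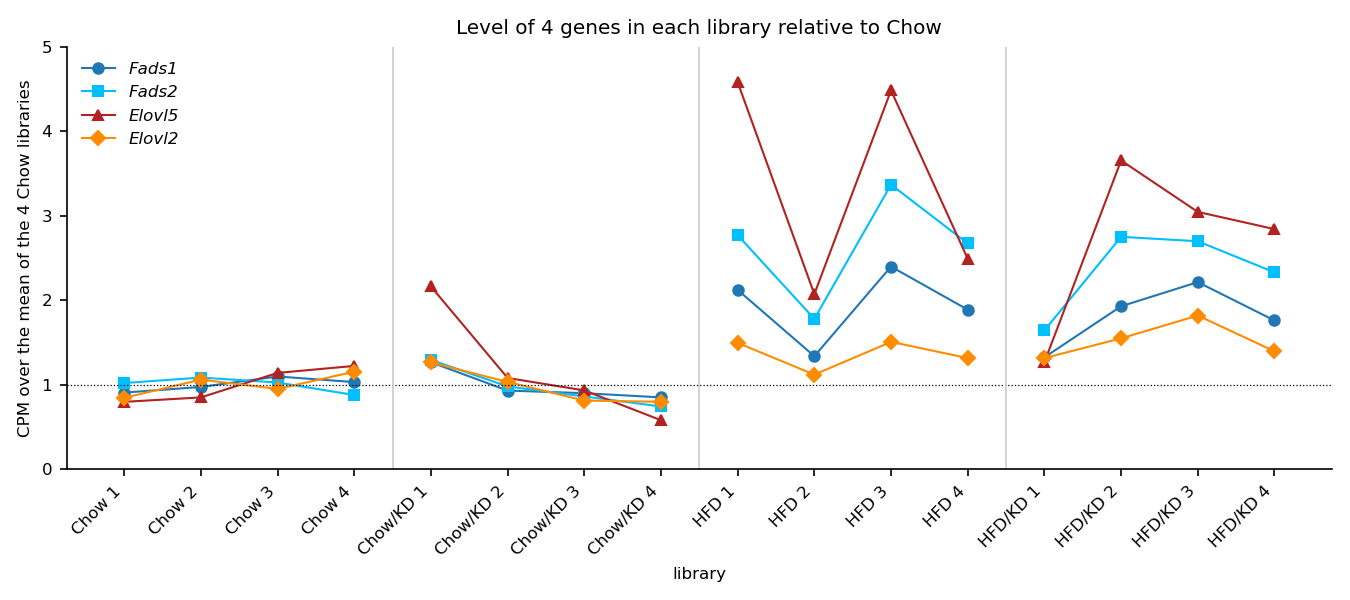
CPM of *Fads1*, *Fads2*, *Elovl5* and *Elovl2* in each of the 16 libraries, divided by the mean of the 4 Chow libraries (dotted line at 1, linear axis), with lines that join the libraries of a group only to guide the eye. All 4 genes dip in HFD 2 and HFD/FGFR4 KD 1, where *Elovl5* is at 2.07 and 1.26 times Chow.

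Over the 16 libraries Pearson's r of log2 CPM between *Fads1* and *Fads2* was 0.98, and 0.91 once the group means were taken off. It was 0.95 (0.88 without group means) between *Fads1* and *Elovl5* and 0.91 (0.82) between *Fads1* and *Elovl2*, while *Fads1* against *Elovl1* gave -0.07 (0.39). Against *Fads1*, *Scd2* gave 0.47 (0.75), *Hacd3* 0.32 (0.68) and *Tecr* 0.26 (0.67). Shared variation within groups was thus not confined to the genes that rose on HFD. These values describe libraries that share their depth, diet and scaling. Among all tested genes *Fads2* was the gene most like *Fads1*, and *Fads1* the most like *Fads2* and *Elovl5*. The second for both desaturases was *Slc16a5*, a member of the monocarboxylate transporter family, with r of 0.96 to *Fads1* and 0.97 to *Fads2*, and the third was *Elovl5* for *Fads1* and the steroid hydroxylase gene *Cyp17a1* (r 0.95) for *Fads2*. *Elovl5* was followed by *Vnn3*, of the vanin family, and *Nid1*, a basement membrane protein (r 0.95 each), and *Elovl2* was most like *Rmnd5a* (r 0.92). The genes most like the other 4 were *Msrb3* for *Elovl1* (r 0.82), *Shroom3* for *Scd2* (0.88), *Lsm5* for *Hacd3* (0.81) and *Arf3* for *Tecr* (0.82).

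The other enzymes of the elongation cycle moved in both directions. Of 8 listed, 5 were tested, and on HFD with saline 1 was called higher and 1 lower. Over all genes tested, 26% were called in that comparison. *Elovl3*, which lengthens saturated and monounsaturated acids, fell from 772 ± 87.5 CPM in Chow (SD, n = 4) to 117 ± 48.8 CPM in HFD (log2 change -2.80, adjusted p 5.06e-05 by limma-voom), and with KD from 731 ± 130.2 to 250.1 ± 93.1 CPM (log2 change -1.60). *Elovl6*, which lengthens palmitate, rose with saline (log2 change 0.62, adjusted p 0.158), and with KD its log2 change was -0.14 and was not called. *Elovl3* was higher with KD on HFD (log2 change 1.11, adjusted p 0.0936) and *Hsd17b12*, the ketoacyl reductase of the cycle, lower (-0.36, adjusted p 0.146). *Hacd1*, a dehydratase like *Hacd3*, was called lower on HFD with KD (-0.99).

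Of 11 other desaturases and electron donors, 8 were tested. On HFD with saline none was called higher and 2 lower, *Fads3* (log2 change -0.73), the neighbour of *Fads2* on chromosome 19, and the cytochrome b5 reductase *Cyb5r1* (-0.52). Those 2 of 8 compare with 26% called over all genes, and edgeR called 1 and DESeq2 0 of this list, while library totals called 4. *Scd1*, the main stearoyl-CoA desaturase of liver, had 4853 ± 1677 CPM in Chow and 8063 ± 5522 CPM in HFD (SD, n = 4) and was not called in any comparison. With KD, HFD called *Fads6* higher (0.39) and *Cyb5r4* lower (-0.26), and DESeq2 called 1 of the list. KD on HFD called none of this list by limma-voom.

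Peroxisomal chain shortening makes docosahexaenoic acid from a longer precursor, and its 6 genes described here were all tested. On HFD with saline 3 were called higher and none lower, the transporter gene *Abcd2* (log2 change 2.77), the multifunctional enzyme gene *Hsd17b4* (0.30) and the thiolase gene *Acaa1b* (0.58), whose counts may be shared with its near copy *Acaa1a*. With KD 1 of 6 was called higher on HFD, *Abcd2* (2.62), and none lower. KD on HFD called 1 of 6 lower, *Hsd17b4* (-0.35), and none higher. Over all genes tested, 26% were called on HFD with saline, 20.2% on HFD with KD and 3.14% for KD on HFD.

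Activation of fatty acids and their transfer into phospholipids were represented by 12 genes, of which 9 were tested. *Mfsd2a*, a transporter of lysophospholipids that carry docosahexaenoic acid, rose from 26.8 ± 19.3 to 100.2 ± 29.1 CPM (SD, n = 4) on HFD with saline (log2 change 2.06, adjusted p 0.00576 by limma-voom), and by 1.83 on the log2 scale with KD. *Agpat3*, an acyltransferase, rose by 0.43 and 0.47, and *Acsl4*, a ligase that prefers arachidonic acid, was lower on HFD with saline (-0.61). KD on HFD called 1 gene of this list, *Acsl3* (1.04). Of 12 regulators, all tested, HFD with saline called *Srebf1* (0.82) and *Ppara* (0.61) higher and *Scap* (-0.33) lower, and HFD with KD called *Ppara* (0.65), *Insig1* (0.68) and *Srebf2* (0.48) higher. KD on HFD called *Srebf2* alone (0.53). With library totals in place of TMM factors KD on HFD called 0 genes of the peroxisomal, activation and regulator lists. The shares called over all genes with TMM factors were 26% on HFD with saline, 20.2% on HFD with KD and 3.14% for KD on HFD.

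Markers of some other cell types and clock genes moved with the diet in the same libraries, and some of them with KD on HFD. All 7 tested of 9 Kupffer cell and macrophage markers were called higher on HFD with saline and 2 with KD, and the summed CPM of the list ran from 63.5 to 71.9 in Chow, 118.7 to 204 in HFD, 79.2 to 104 in Chow/FGFR4 KD and 94.9 to 168 in HFD/FGFR4 KD. Of 5 adipocyte markers 2 were tested, *Cfd* and *Fabp4*, and both were called higher on HFD with saline and with KD. Their list summed to between 3.40 and 14.8 CPM in Chow, 25.9 and 32.5 CPM in HFD, 3.47 and 7.73 CPM in Chow/FGFR4 KD and 11.6 and 19.9 CPM in HFD/FGFR4 KD, with *Lep* at 0 in every library and *Plin1* at 0 in every HFD library. Of 6 stellate cell markers 3 were called higher on HFD with saline and 1 with KD, and their sum ran from 90.2 to 131 CPM in Chow, 149 to 264 CPM in HFD, 75.8 to 123 CPM in Chow/FGFR4 KD and 105 to 179.9 CPM in HFD/FGFR4 KD. Of 6 hepatocyte markers 3 were called lower on HFD with saline and none with KD. Of 6 endothelial markers 2 were called higher on HFD with saline and 1 with KD. Their sums overlapped, at 91.3 to 121 CPM in Chow and 104 to 120 CPM in HFD. Of 2 cholangiocyte markers tested none was called with saline and 1 was called lower with KD. The 1 lymphocyte marker tested was called higher with saline and not called with KD. Of 5 clock genes that are high around lights on, 5 were called lower on HFD with saline and 5 with KD, and of 8 tested that are high around lights off 6 and 7 were called higher. Over all genes, 13.3% were called higher and 12.7% lower on HFD with saline, and 10.1% and 10.1% with KD. KD on HFD called 3 of the 5 genes high around lights on higher. It called 2 of the 8 tested genes high around lights off lower. Of the cell type markers, it called 1 of 2 adipocyte and 1 of 6 hepatocyte markers lower, and none of the other lists. Over all genes 3.14% were called in that comparison. The time of day and the feeding state at collection are not given in the sources used here. The part of these cell types and of the clock in the changes of *Fads1*, *Fads2*, *Elovl2* and *Elovl5*, and in the KD comparisons, was not tested.

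Scaling changed the size but not the call of the diet effect. With library totals in place of TMM factors, the median log2 change of all genes on HFD moved to 0.29 with saline and 0.14 with KD, and 92.1% of calls with saline were higher, against 51.2% with TMM factors, and 82.8% with KD, against 50.1%. Relative to that median the log2 change with saline was 1.36 for *Fads2*, 0.92 for *Fads1*, 1.70 for *Elovl5* and 0.43 for *Elovl2*. With KD it was 1.30, 0.89, 1.27 and 0.67. For *Hacd3* and *Tecr*, relative to the median, it was -0.01 and -0.02 with saline.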

How the data were processed

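Liver RNA of 16 mice was sequenced, 4 in each of 4 groups taken from the sample titles. The labels name a KAPA mRNA library kit, while the methods of the study name HTG EdgeSeq, and the difference was not resolved. Reads were trimmed with fastp and pseudoaligned with kallisto against GRCm38, per the labels, and transcript estimates were summed to genes with tximport, per the methods. The release of the transcriptome and tool versions are not given in the sources used here. The authors deposited expected counts, which need not be whole. Between 7.85% and 11.1% of the values of a library were not whole, and 27199 of 52143 genes were at 0 in every library. Genes were named from Ensembl identifiers, and symbols were found for 98.3%.

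Genes with under 1 CPM in more than 4 libraries were left out, by the rule that the methods of the study state, leaving 11324, all 8 genes described among them. The other reading of that rule, 1 CPM in at least 4 libraries, left 12985. TMM scaling came from edgeR 4.0.16, and the voom model of limma 3.58.1 (R 4.3.3) held 1 mean per group over the 16 libraries. Calls needed both p under 0.05 and, after Benjamini-Hochberg adjustment over all genes tested, an adjusted p under 0.25. The comparisons were HFD with saline, HFD with KD, KD on chow, KD on HFD and the interaction. The 3 genes most like each gene were those with the highest Pearson's r of log2 CPM (prior count 2), without predicted genes. From each pathway list, at most 3 higher and 3 lower called genes were named per comparison. Part of the peroxisomal list is not reported here. *Scd1* and genes of the marker lists were named outside this rule, after their values were seen. The genes and lists were chosen with earlier results of these data known.

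Total counts of 3445949 to 5976449 set the counting error, and the spread between mice came on top of it. *Elovl5* in HFD had 26979 counts in sum (exact Poisson interval 26658 to 27303). Its SD between the 4 mice was 412 CPM around a mean of 1068 CPM. *Scd2* in HFD had 100 counts in sum (81.4 to 122). The 24 pairs of libraries within a group were checked for duplicates over 7405 genes, and none was found (chi-square over its degrees of freedom 7.59 to 72.6). Other tests tried were DESeq2 1.42.0 on rounded counts and the quasi-likelihood test of edgeR. Other settings were 2 filters, scaling by upper quartiles or library totals, removal of the abundant genes Gm42418 and Lars2, quality weights for libraries, a replicate block, a fit of the compared groups alone, a stricter adjusted p (under 0.05) and each library left out in turn. The fit was tested on simulated counts. Shared sequence was measured as 31-base words that occur in transcripts of other genes. Promoter windows were searched with Python 3.11.15 in 250 bases before the RefSeq start.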

Additional observations from a re-analysis of the deposited data

Results flagged for a closer look

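*Hacd3* in HFD 2 was flagged because it lay far below the other libraries of its group, by Dixon's test at the 95% level. It had 112.6 CPM there, against 134, 136 and 136 CPM in the other HFD libraries. Among the 32 sets of 4 libraries examined (8 genes in 4 groups) this was the only one, and chance flags about 5% of such sets. The same library was the lowest of its group for 7 of 8 genes.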

How the results depend on the processing

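On HFD with saline 4 of the 8 genes were called under all alternatives but the adjusted p under 0.05, which left 3, and the count without any single library was 4 to 4. With KD it was 4 under most alternatives, 5 with edgeR, DESeq2 or quality weights, 6 with only the groups compared, 3 at an adjusted p under 0.05 and 4 to 5 without a library. *Fads1*, *Fads2*, *Elovl2* and *Elovl5* were called higher on HFD at the threshold of the study in all 18 alternatives of each diet comparison. Neither KD comparison nor the interaction called any of the 8 genes under any alternative run (0 to 0 without a library). *Scd2* had the lowest counts of the 8 genes. No label ties the replicate numbers to shared mice or days, and same-numbered libraries did not deviate together (r between -0.29 and 0.24); with the replicate block 4, 4, 0, 0 and 0 of the 8 genes were called in the 5 comparisons, and 2 genes of all in the interaction.

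The number of all genes called on HFD with saline was 1042 at an adjusted p under 0.05 and 5324 with no filter, and on HFD with KD 351 at an adjusted p under 0.05. For KD on HFD it was 31 at an adjusted p under 0.05, 776 with quality weights and 114 with library totals. For KD on chow it was 2 with DESeq2 or only the groups compared and 3 with library totals. For the interaction it was 54 with DESeq2, 1 at an adjusted p under 0.05, 7 with quality weights or no filter and 0 with library totals. Without a library it ran from 2414 to 3011 on HFD with saline, 1189 to 2535 on HFD with KD, 89 to 622 for KD on HFD, 1 to 2 for KD on chow and 1 to 27 for the interaction. The cause was not tested.

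Some changes turned their sign under other settings. The largest were those of *Hacd3* and *Tecr* with library totals, which moved the median of all genes as well. For *Hacd3* the log2 change was -0.068 (KD on HFD), 0.28 (HFD with saline), 0.16 (HFD with KD) and -0.12 (interaction) with library totals, and -0.010 (KD on chow), 0.022 (HFD with saline) and 0.042 (HFD with KD) with upper quartiles. Without Gm42418 and Lars2 it was -0.00024 (KD on chow) and 0.0071 (HFD with KD). On HFD with saline it was 0.0029 with edgeR, 2.9e-05 with DESeq2, 0.0028 with no filter and 0.013 with quality weights, and in the interaction -0.0060 with edgeR, -0.0040 with DESeq2, -0.010 with no filter and -0.020 with quality weights. For *Tecr* it was 0.025 (KD on chow), 0.27 (HFD with saline) and 0.12 (HFD with KD) with library totals, 0.0080 (KD on chow) and 0.031 (HFD with saline) with quality weights, and 0.014 (HFD with saline) and 0.0066 (HFD with KD) with upper quartiles. *Fads1* for KD on chow was 0.0075 with library totals, and *Scd2* on HFD with saline 0.0037 with quality weights.

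Without a library, the log2 change for KD on HFD ran from -0.26 to 0.048 for *Fads1*, -0.34 to 0.0026 for *Fads2*, -0.058 to 0.055 for *Hacd3* and -0.11 to 0.044 for *Tecr*. For KD on chow it ran from -0.17 to 0.028 for *Fads1*, -0.23 to 0.046 for *Fads2*, -0.19 to 0.033 for *Elovl2*, -0.24 to 0.39 for *Elovl5*, -0.57 to 0.059 for *Scd2*, -0.054 to 0.069 for *Hacd3* and -0.080 to 0.057 for *Tecr*. On HFD with saline it ran from -0.042 to 0.16 for *Elovl1*, -0.68 to 0.26 for *Scd2*, -0.026 to 0.064 for *Hacd3* and -0.083 to 0.069 for *Tecr*. On HFD with KD it ran from -0.063 to 0.060 for *Hacd3* and -0.098 to 0.056 for *Tecr*. In the interaction it ran from -0.22 to 0.087 for *Fads1*, -0.27 to 0.075 for *Fads2*, -0.066 to 0.061 for *Hacd3* and -0.10 to 0.065 for *Tecr*.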

Other observations

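Ratios between elongases gave a further view of the pathway. CPM of *Elovl5*, which acts on polyunsaturated acids, over that of *Elovl6*, which acts on palmitate, ran from 2.48 to 6.06 in Chow and from 2.22 to 5.97 in Chow/FGFR4 KD. It ran from 7.02 to 9.88 in HFD and from 7.03 to 13.9 in HFD/FGFR4 KD. Every library on HFD, HFD/FGFR4 KD 1 included, had a higher ratio than every library on chow, which was not so for the level of *Elovl5* itself. CPM of *Scd2* over that of *Scd1* was between 0.00023 and 0.00286 in all libraries. The listed genes *Elovl4*, *Elovl7*, *Hacd4*, *Scd3*, *Scd4*, *Cyb5r2*, *Acsl6*, *Mboat2* and *Pla2g4a* were too low to be tested.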
